A study of Gallus gallus with 2 samples.

Results

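Of the 55 lysosome and autophagy genes examined here, 51 were measured in the ileum of chickens fed corn or paddy rice, out of 13008 genes named on the array. The genes were listed by function, with earlier results of these data known. A gene was measured when a chicken probe set was assigned to it alone, under its current symbol or an older alias. CLN3, TMEM55B, MAN2B1 and ATG16L1 had no such probe set and were not analysed here. The gene listed as CTSL2 carries the current symbol CTSV, and its synonyms in RefSeq include CTSL. The measured genes encode 6 lysosomal membrane proteins, 20 hydrolases and their helpers, 8 subunits of the proton pump, 10 autophagy proteins and 7 proteins of sorting and regulation.

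The RNA came from male White Leghorn chicks in cages of their own, 9 per diet according to the labels. From 7 to 21 d of age, for 14 d, they ate a diet with 650 g/kg of corn (control) or of paddy rice, on the same base of soybean protein extract and soybean oil, with crude protein and energy not equalized. Total RNA of a whole ileal segment from 3 birds per diet was pooled for each array, and the birds were picked for a MUC2 level near their group's average. There was therefore 1 array per diet. No replicate error and no test between diets could be given, and every ratio below is the MAS5 signal (a linear intensity per probe set) in the paddy rice pool divided by that in the corn pool. In tissue RNA, a lower signal from fewer cells of a type and from less RNA per cell cannot be told apart.

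Lysosomes are acidic compartments in which hydrolases break down proteins, sugars and lipids brought by endocytosis or by autophagy. A proton pump, the V-ATPase, acidifies them, membrane glycoproteins line and protect them, and mannose 6-phosphate receptors bring the enzymes from the Golgi. In autophagy, a double membrane closes around cytoplasm and fuses with the lysosome. Transcription factors of the MiT family, TFEB and MITF among them, are known in mammals to bind a shared promoter element of lysosomal and autophagy genes. The young intestine of some mammals uses lysosomes to digest proteins taken up whole, and macrophages of the lamina propria are also rich in them.

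Markers of the cell types in the tissue were compared first. All 10 measured enterocyte markers, VIL1, FABP6 and SLC10A2 among them, lay above background on both arrays, with summed signals of 187910 (corn) and 185583 (paddy rice) and ratios from 0.881 to 1.12. The 11 measured of 13 macrophage and myeloid markers summed to 51375 and 51130. Of this, CD74, the invariant chain that associates with MHC class II and is not confined to macrophages, gave 40011 and 39264. The median ratio of the 11 markers was 0.994. Within them MARCO was at 1.38 and MRC1 at 0.735, none was past a threshold, and none was at background. The 5 smooth muscle markers summed to 46012 and 45621. The dim ACTA2 (49.6 and 74.7) was at 1.51, and the others ran from 0.956 (TAGLN) to 1.05 (DES). The 5 endothelial markers summed to 4842 and 4525. Of these PECAM1 was at 0.595, while VWF was at 1.01, CDH5 at 1.06, KDR at 0.967 and TEK at 0.901. Of the 4 measured plasma cell genes, JCHAIN was at 0.126 and IGLL1 at 0.213, while XBP1 was at 0.977 and PRDM1 at 1.01. They summed to 12907 and 9722, of which XBP1 gave 9303 and 9085. The part of these differences in the results on lysosomal genes was not tested.

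Most of the lysosome and autophagy genes had similar signals in both pools, as did most named genes of like brightness. Of the 51 genes, 28 (54.9%) had a ratio between 0.9 and 1.1, beside 43.6% of all named genes, and 48 lay between 0.67 and 1.5, the ratios at which the study called a gene. CD63 and VPS18 were above 1.5, and SCARB2 was below 0.67. The same thresholds were passed by 8.27% (1076) of all named genes upwards and by 8.57% (1115) downwards, mainly at low signals. The study reported far fewer genes past these ratios. A gene past a threshold here is therefore not necessarily among its calls. A gene is called bright below when the geometric mean of its signals reached the upper quartile of chicken probe sets (522), and mid-signal when it lay between the median (111) and that quartile. Among the 5782 bright named genes, 0.623% were above 1.5 and 0.329% below 0.67, and 40 of the 51 genes were bright. Among the 3458 mid-signal named genes, the shares were 3.96% and 4.02%. The median ratio of the 51 genes was 1.02 (log2 0.034), beside 0.998 (log2 -0.0029) for all named genes, and 31 of the 51 (60.8%) had a ratio above 1, beside 49.5% of all named genes. Among bright genes these shares were 62.5% (25 of 40) and 49.9%, and a ratio between 0.9 and 1.1 was found for 67.5% of the 40 and 65.5% of all bright genes.

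**Figure D1:**
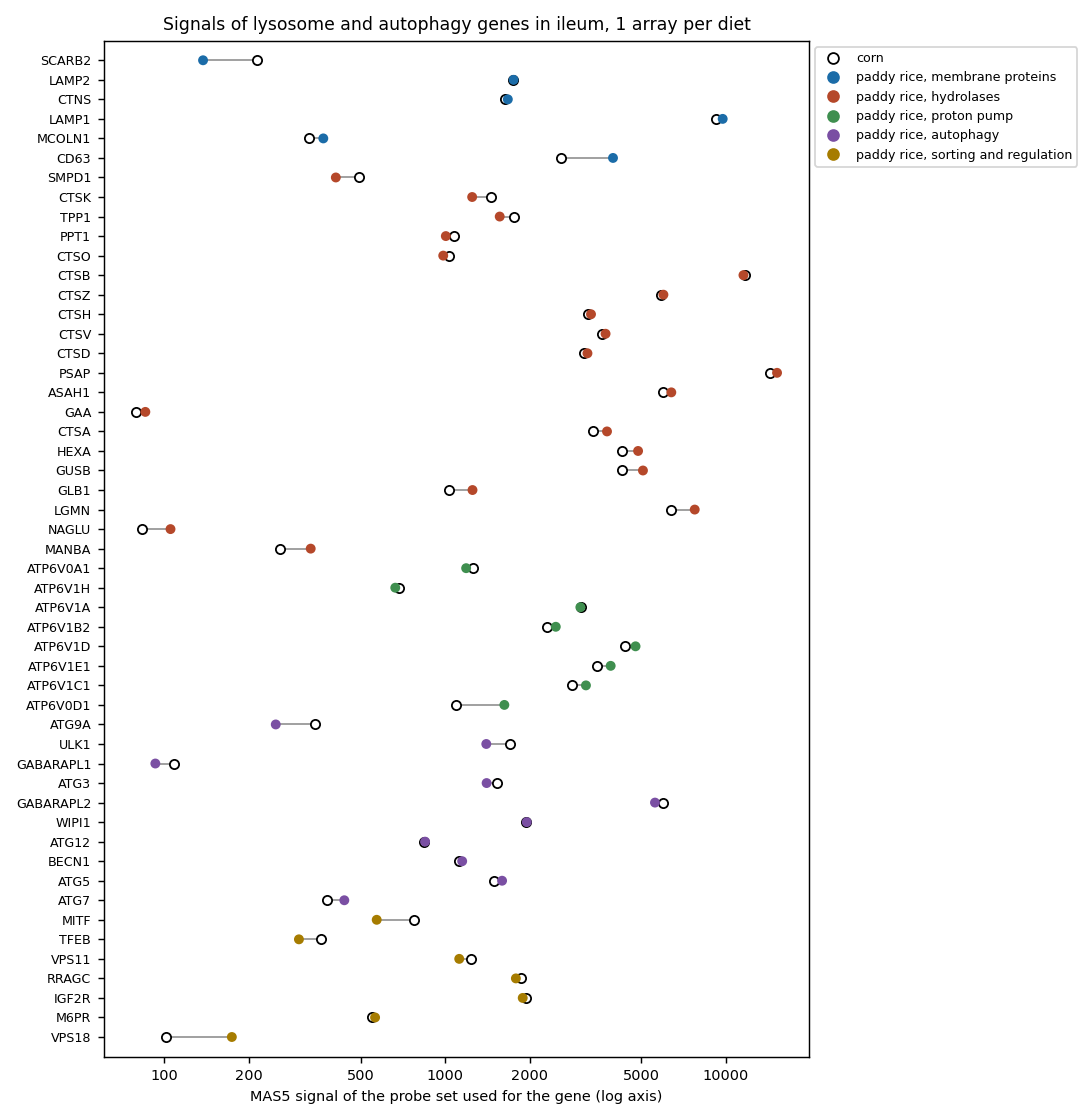
MAS5 signal in the corn pool (open circles) and the paddy rice pool (filled circles, coloured by group) of the probe set used for each of the 51 genes, on a log axis, 1 array per diet. Each line joins the signals of 1 gene, and levels of different genes are not comparable because their probes differ. The longest gaps belong to VPS18, SCARB2, CD63 and ATP6V0D1.

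The error of a ratio between diets could not be estimated. Genes read by several probe sets gave only the spread between probe sets on the same arrays. That spread holds no variation between birds, pools or arrays. The log2 ratios of probe sets of the same gene had a pooled SD of 0.16 where the probe sets were bright (1663 genes) and 0.27 where they at least reached the median signal (4028 genes). For the lysosome and autophagy genes these SDs were 0.13 (12 genes) and 0.18 (18 genes). Of those 18 genes, 10 had all such probe sets on 1 side of a ratio of 1, 8 above and 2 below. The 2 below were MITF and ATG9A. The same count over the 4028 genes is not given here, so these numbers are a description only. Below the median signal but above background on both arrays, 5 further probe sets were read, at 0.574 for ATG9A, 0.638 for M6PR, 0.722 for ATG3, 0.795 for PSAP and 1.31 for ATP6V1D. A single probe set read 30 of the genes, CD63, SCARB2, VPS18 and ATP6V0D1 among them, and their ratios have no such check.

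Among the membrane proteins, CD63 was higher and SCARB2 lower in the paddy rice pool, and the LAMP proteins had ratios near 1. LAMP1, an abundant glycoprotein of the lysosomal membrane, read 9256 in the corn pool and 9740 in the paddy rice pool (ratio 1.05). LAMP2, its relative and the receptor of chaperone-mediated autophagy in mammals, had 1751 and 1752. Its ratio was 1.00, and its other measured probe sets were at 0.997 and 0.986. For both genes the pools differed by less than the spread between probe sets of a gene.

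CD63, a tetraspanin of late endosomes, lysosomes and exosomes, went from 2582 in the corn pool to 3961 in the paddy rice pool (ratio 1.53). Only 27 of the 5782 bright genes (0.467%) had a ratio as high. SCARB2 (LIMP2), the membrane protein that carries the enzyme glucocerebrosidase to the lysosome, went from 213 to 137, a ratio of 0.644. Its signal lay at the 57.5th percentile, where ratios scatter more, and 2.98% of the 3458 mid-signal genes were as low. After adding the 25th percentile of signals (31.4) to both pools, its ratio was 0.689 and no longer below 0.67, while CD63 stayed at 1.53. The cystine exporter gene CTNS had signals of 1637 and 1672, a ratio of 1.02. MCOLN1, a calcium channel of the lysosome, had 327 and 368, a ratio of 1.12.

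**Figure D2:**
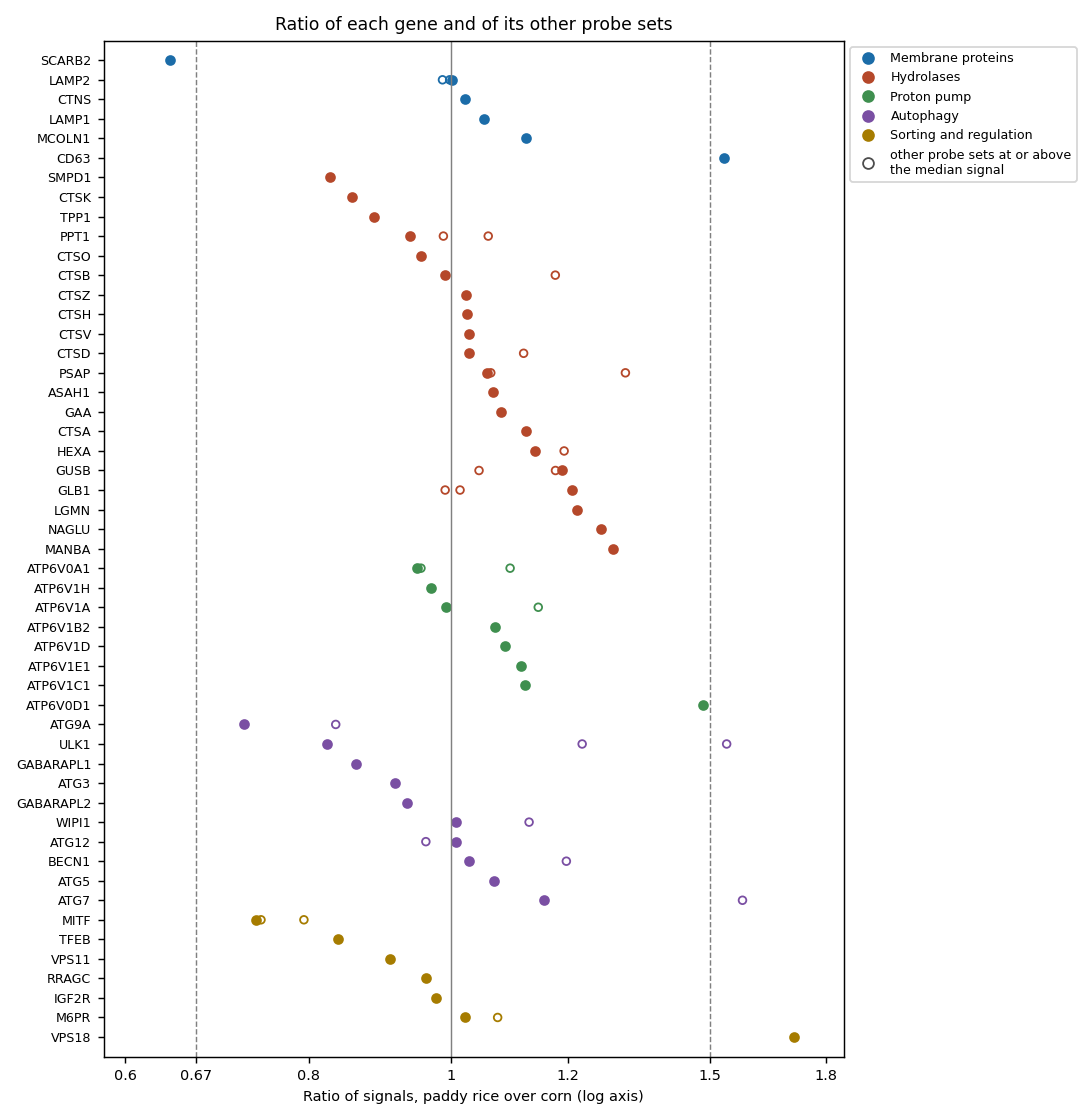
Ratio of signals, paddy rice over corn, of each gene (filled points) and of those further probe sets that reached the median signal (open points), on a log axis, with dashed lines at 0.67 and 1.5. CD63 and VPS18 lie right of 1.5 and SCARB2 left of 0.67, and the 3 probe sets of MITF lie together between 0.737 and 0.794.

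None of the 20 hydrolases and helpers passed a threshold. The bright ones numbered 16, and among bright named genes 0.623% passed upwards and 0.329% downwards. SMPD1 and MANBA were mid-signal, where the shares were 3.96% and 4.02%, and GAA and NAGLU were dimmer still. Of the 20, 14 (70.0%) had a ratio above 1, beside 49.5% of all named genes. The ratios of the 20 ran from 0.827 for SMPD1 to 1.29 for MANBA, with a median of 1.04 (log2 0.061). PSAP, the precursor of the saposins that present lipids to their enzymes, had signals of 14386 and 15213 and a ratio of 1.06. The other 2 PSAP probe sets that reached the median signal were at 1.06 and 1.31. CTSB, a cysteine protease, had 11661 and 11549, a ratio of 0.990, and its second probe set was at 1.18. These 2 genes show how far probe sets of a gene can differ here even at high signals. In both, the probe set of highest ratio is marked as shared between transcripts, and the brightest is not.

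The proteases centred on a ratio of 1. The cathepsins CTSD, CTSH, CTSV and CTSZ lay between 1.02 and 1.03 on their brightest probe sets. CTSD, the main aspartic protease of lysosomes, had signals of 3124 and 3212, and its second probe set was at 1.12. The last probe set of CTSD, above background on the corn array only, was at 0.640 (61.1 and 39.1). CTSO was at 0.954. CTSK, known for its part in collagen breakdown by osteoclasts, read 1459 in the corn pool and 1248 in the paddy rice pool (ratio 0.855). TPP1, an aminopeptidase, went from 1764 to 1564, a ratio of 0.886. LGMN (legumain), which cleaves after asparagine and matures cathepsins, went the other way, from 6354 to 7743, a ratio of 1.22. A ratio at least as high was found for 5.53% of bright genes. CTSA, a carboxypeptidase that also shields beta-galactosidase in a complex, went from 3354 to 3771, a ratio of 1.12. The 10 proteases together had a median ratio of 1.02, with 6 above 1 and 4 below.

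All 6 measured glycosidases had a ratio above 1, beside 49.5% of all named genes, with a median of 1.20 (log2 0.26) and no gene above 1.5. This class was set apart by enzyme function after the values had been seen, so its count is a description. GUSB (beta-glucuronidase) went from 4254 to 5064, a ratio of 1.19, with 1.18 (marked as shared between transcripts) and 1.04 on its other probe sets. HEXA, a subunit of beta-hexosaminidase, went from 4266 to 4866, a ratio of 1.14, and its second probe set was at 1.19. Both probe sets of HEXA are marked as shared. For both of these genes every measured probe set lay above 1.

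GLB1 (beta-galactosidase) went from 1035 to 1251, a ratio of 1.21, but its other probe sets were at 0.990 and 1.01. MANBA (beta-mannosidase) went from 258 to 332 and had the highest ratio of the hydrolases, 1.29. NAGLU, which acts on heparan sulfate, was at 1.27 with signals of 83.0 and 105, and GAA, which breaks down glycogen, at 1.08 with 79.1 and 85.5. The last 2 lay below the median signal (111), though above the level taken as background (44.1 on corn and 45.1 on paddy rice). Of the 3768 named genes below the median signal, 32.7% had a ratio as high as NAGLU and 44.5% as high as GAA. Those 3768 also include genes under background, so these shares are not of genes of like brightness. Of bright genes, 7.52% had a ratio as high as GUSB, 12.3% as high as HEXA and 6.16% as high as GLB1, and 11.5% of mid-signal genes one as high as MANBA.

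Genes of lipid breakdown lay on both sides of 1. SMPD1 (acid sphingomyelinase) went from 493 to 408 and had the lowest ratio of the hydrolases of the set, 0.827. ASAH1 (acid ceramidase), the next enzyme on the path from sphingomyelin, went from 5989 to 6390, a ratio of 1.07. PPT1, which removes palmitate from proteins, was at 0.937 with signals of 1073 and 1005, and at 1.06 and 0.988 on its other probe sets. These 3 genes and PSAP had a median ratio of 0.995.

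Outside the 55 genes, a further list of lysosomal enzymes and helpers (SUMF1, NPC2 and GM2A among the helpers) gave a similar picture. Of 25 measured, 23 were at or above the median signal, with a median of 1.07. Of the 23, 16 (69.6%) had a ratio above 1, beside 49.3% of all named genes at such signals. None of the 23 was past a threshold on its brightest probe set. In this list 4 of 6 glycosidases were above 1, with MAN2B2 at 1.27, GLA at 1.19, IDUA at 1.15 and FUCA1 at 1.01, while GALC was at 0.947 and HYAL1 at 0.876. The median over 2 probe sets was further from 1 for MAN2B2 (1.54) and for HYAL1 (0.705). Of 5 sulfatases 3 were above 1, with a median of 1.01. HYAL2, below the median signal as GAA and NAGLU were, went from 145 to 57.4, a ratio of 0.397. The extra enzymes therefore had glycosidases on both sides of 1.

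**Figure D3:**
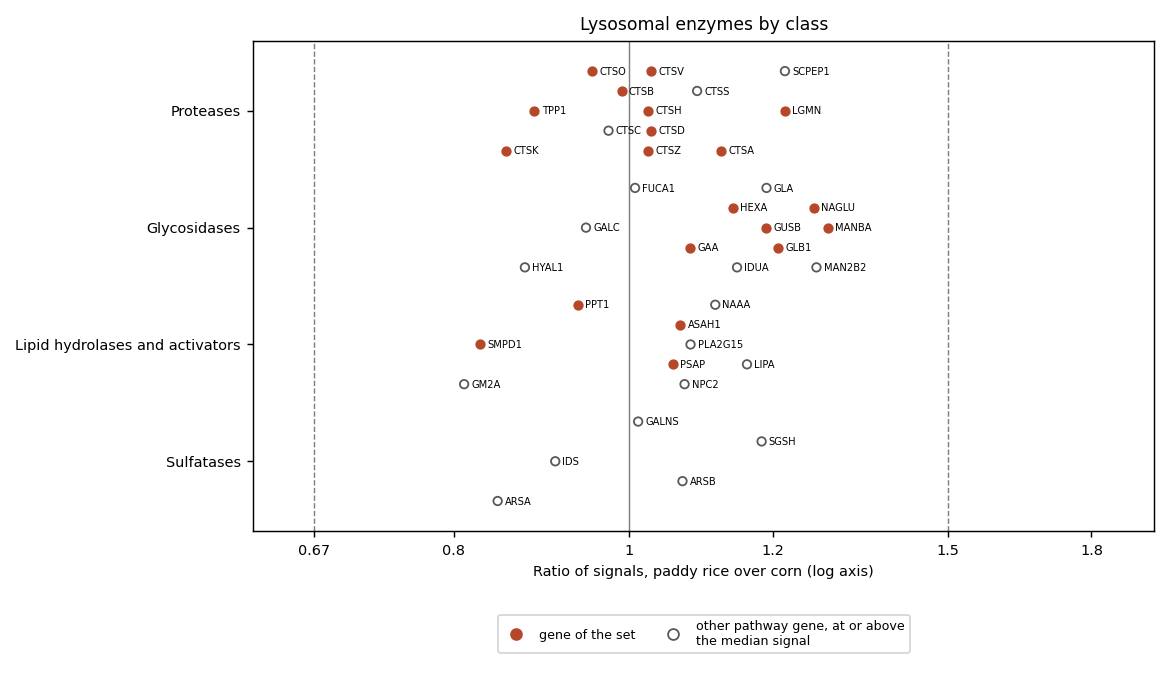
Ratio of signals, paddy rice over corn, of lysosomal enzymes and helpers by class, on a log axis with dashed lines at 0.67 and 1.5. Filled points are the 20 hydrolases and helpers of the set and open points other pathway genes at or above the median signal. The 6 filled glycosidases all lie right of 1, at a median of 1.20, and the 10 filled proteases lie around 1.02.

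The proton pump had 5 of 8 subunits (62.5%) above a ratio of 1, beside 49.9% of bright named genes. Its median was 1.08 (log2 0.11), and no subunit was past a threshold. The pump couples a peripheral V1 domain, which splits ATP, to a membrane V0 domain, which carries the protons. The highest ratio was that of ATP6V0D1, the subunit that links the V0 rotor to the V1 stalk. It went from 1094 in the corn pool to 1625 in the paddy rice pool, its ratio of 1.48 was just inside 1.5, and 0.692% of bright genes were as high. The other V0 member, ATP6V0A1, a channel subunit, had 1253 and 1187, a ratio of 0.947, with 0.954 and 1.10 on its other probe sets.

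The V1 subunits differed little between the pools. ATP6V1D, of the central stalk, had signals of 4382 and 4766, a ratio of 1.09. ATP6V1E1, of the outer stalk, had 3484 and 3886, a ratio of 1.12. The catalytic subunit ATP6V1A was at 0.991 on its brightest probe set and 1.15 on the second. Its partner ATP6V1B2 was at 1.07, ATP6V1C1 at 1.12 and the regulatory ATP6V1H at 0.969. Of the 10 other pump and accessory genes that reached the median signal, 9 lay from 0.977 (ATP6V0A2) to 1.04 (ATP6V0E1). The exception was TCIRG1, another isoform of the a subunit, with signals of 493 and 399 and a ratio of 0.809. Among all pump genes that reached the median signal, the highest ratio after that of ATP6V0D1 was the 1.12 of ATP6V1C1.

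Of the 10 autophagy genes, 5 had a ratio above 1 and 5 below, none was past a threshold on its brightest probe set, and the median was 0.969 (log2 -0.045). GABARAPL2, a protein of the ATG8 family that is coupled to lipid on the growing membrane, had signals of 5991 and 5589, a ratio of 0.933. Its relative GABARAPL1 was at 0.861 with signals of 108 and 92.8, below the median signal. WIPI1, which binds the lipid made at the site of formation, had 1939 and 1953, a ratio of 1.01. The second probe set of WIPI1 was at 1.13 (116 and 131).

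ATG9A, the only membrane-spanning protein among the autophagy genes of the set, had the lowest ratio of them. Its signal went from 345 in the corn pool to 249 in the paddy rice pool (ratio 0.723), and its other probe sets were at 0.834 (214 and 178) and 0.574 (120 and 68.8, below the median signal). All 3 probe sets were lower in the paddy rice pool. Of the mid-signal genes, 7.81% had a ratio as low as that of the brightest probe set.

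The probe sets of ULK1 disagreed in direction, and those of ATG7 differed in size. ULK1, the kinase that starts autophagy, read 1701 and 1401 on its brightest probe set (ratio 0.823). Its other probe sets, both marked as shared between transcripts, had 170 and 261, a ratio of 1.54, and 156 and 191, a ratio of 1.23. ATG7, the activating enzyme of both conjugation systems, had 378 and 437, a ratio of 1.16, the highest of the autophagy genes of the set. Its second probe set, also marked as shared, had 199 and 314, a ratio of 1.58, and the last was under the background level on both arrays. The second probe sets of ULK1 and ATG7 were the only ones at or above the median signal, apart from the brightest of a gene, to pass a threshold. The direction for ULK1 therefore depended on the probe set read.

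Apart from ATG7, the conjugation genes of the set (ATG3, ATG5 and ATG12) lay from 0.915 to 1.07 on their brightest probe sets. ATG3, which joins ATG8 proteins to lipid, was at 0.915 with signals of 1534 and 1405. ATG5 was at 1.07 and its partner ATG12 at 1.01, with 0.961 on the second probe set of ATG12. BECN1, the regulatory subunit of the lipid kinase complex, was at 1.03 on a probe set marked as shared and at 1.20 on the other. Among 28 further autophagy genes at or above the median signal, 17 (60.7%) were above 1, beside 49.3% of all named genes at such signals. None of the 28 was past a threshold on its brightest probe set, and their median was 1.05. The 28 included the cargo receptors SQSTM1 at 1.19, NBR1 at 1.18, CALCOCO2 at 1.12 and OPTN at 1.08, and TAX1BP1 at 0.940. Of the ULK1 complex, ULK2 was at 1.30, RB1CC1 at 1.23, ATG13 at 1.10 and ATG101 at 0.845. The median over the 4 probe sets of RB1CC1 was 0.860, on the other side of 1. MAP1LC3A and MAP1LC3B, the best known ATG8 proteins, were at 1.11 and 0.931, and the median over the 4 probe sets of MAP1LC3B was 0.672.

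Sorting genes of the set differed little, with the exception of VPS18. M6PR and IGF2R, the small and the large mannose 6-phosphate receptor, deliver new hydrolases to the endosome (in birds, IGF2R differs from that of mammals in not binding IGF2). M6PR read 550.3 in the corn pool and 563 in the paddy rice pool (ratio 1.02), with 1.08 on its second probe set. A dimmer one was at 0.638 (111 and 70.6), and the last was under the background level on both arrays. IGF2R had 1934 and 1889, a ratio of 0.976. VPS11, a core subunit of the HOPS complex that tethers late endosomes and autophagosomes to lysosomes, had 1234 and 1122, a ratio of 0.909.

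VPS18, another core subunit of HOPS, went from 101 to 174 and had the highest ratio of the 51 genes, 1.71. The identifier of its lone probe set marks probes shared between transcripts, and its signal lay at the 53.2th percentile. Of mid-signal genes, 1.45% had a ratio as high. After the same addition to both pools it was at 1.54. The other HOPS subunits measured were VPS16 at 0.891, VPS33A at 0.926, VPS39 at 1.17 and VPS41 at 1.16. The median over probe sets put VPS16 (1.03) and VPS41 (0.935) on the other side of 1. VPS18 was thus past a threshold without the other 5 subunits measured.

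Both MiT transcription factors in the set had lower signals in the paddy rice pool. MITF went from 774 in the corn pool to 570.2 in the paddy rice pool, with a ratio of 0.737 (log2 -0.44). Its next probe sets, both marked as shared between transcripts, went from 406 to 322 (ratio 0.794) and from 219 to 163 (ratio 0.742). The 3 probe sets thus lay within a narrow range, and 1.25% of the 5782 bright genes had a ratio as low as the brightest. Their identifiers share a stem, and whether they read the gene independently was not tested. Its other probe sets, with signals of 34.5 and 48.1 and of 28.2 and 30.0, were at or near background and give no direction. TFEB had 360 and 301, a ratio of 0.837, on 1 probe set marked as shared. A ratio as low as that of TFEB was found for 20.6% of mid-signal genes.

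RRAGC, a small GTPase that holds TFEB and mTORC1 at the lysosome, had signals of 1859 and 1786, a ratio of 0.961. Its dimer partner RRAGA was at 1.00 and the Ragulator genes LAMTOR2, LAMTOR3 and LAMTOR5 at 1.01, 0.980 and 0.939. For these 5 genes the pools differed by less than the spread between probe sets of a gene. RRAGD, another GTPase of this family, was at 0.894 with signals of 501 and 448. Over all 7 sorting and regulation genes of the set the median ratio was 0.961 (log2 -0.058), with 2 above 1 and 5 below. Among 37 further such genes at or above the median signal, 17 (45.9%) were above 1, beside 49.3% of all named genes at such signals. None of the 37 was past a threshold on its brightest probe set, and their median was 0.980. Their ratios ran from 0.786 for VPS29 (1272 and 1000) to 1.41 for FIG4 (275 and 388).

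**Figure D4:**
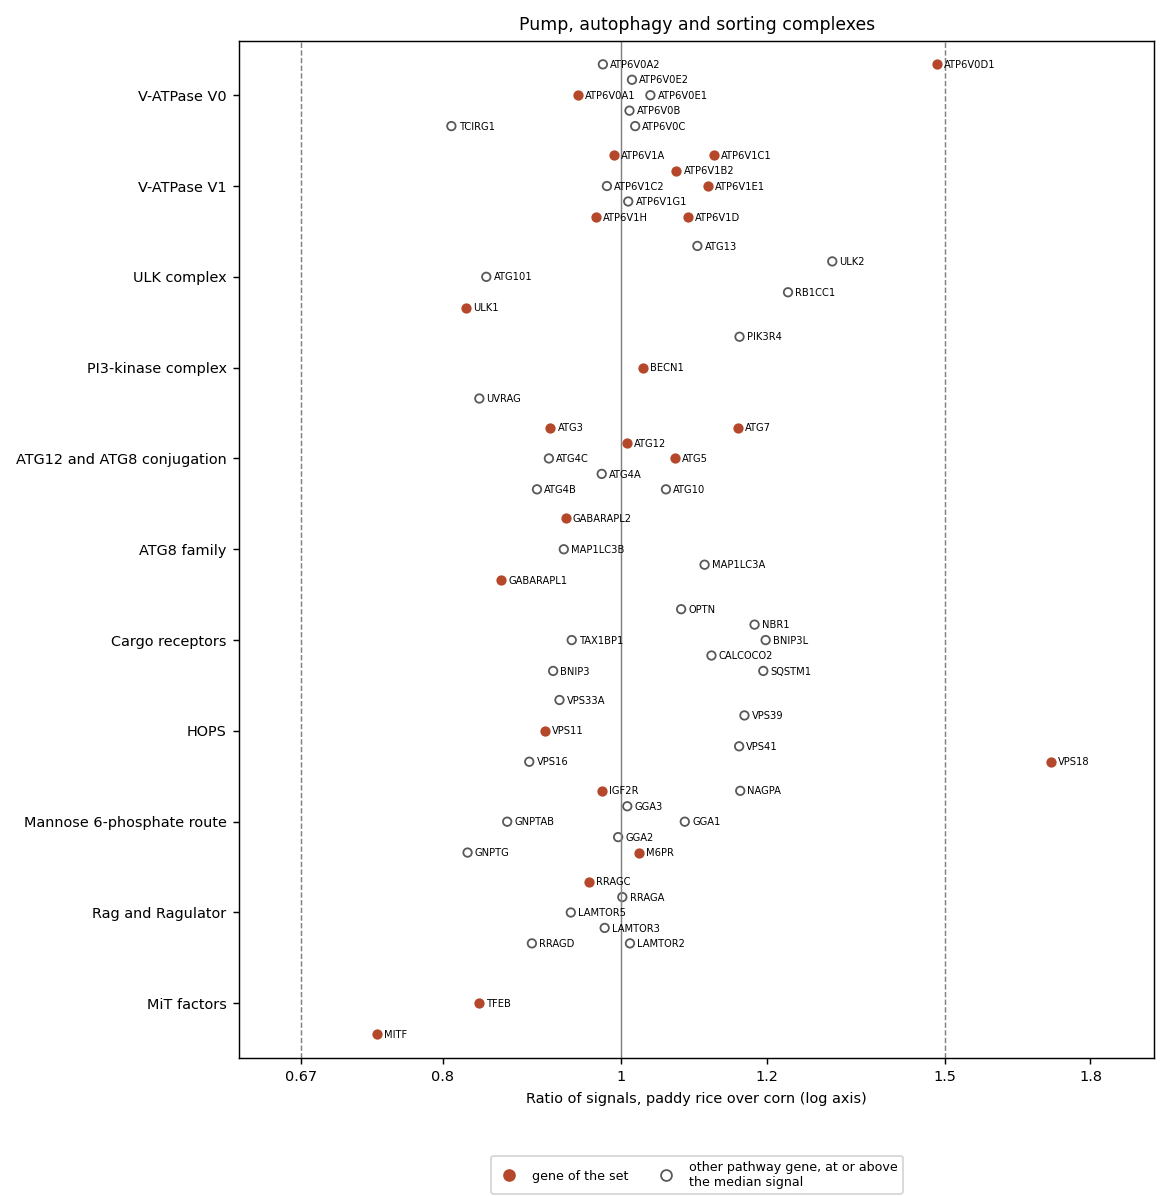
Ratio of signals, paddy rice over corn, by complex or family, on a log axis with dashed lines at 0.67 and 1.5; filled points are genes of the set and open points other pathway genes at or above the median signal. ATP6V0D1 (1.48) and VPS18 (1.71) lie apart from the other subunits of their complexes, and MITF (0.737) and TFEB (0.837) are both left of 1.

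In all, 132 further lysosome and autophagy genes were measured, and 119 of them were at or above the median signal. Of these 119, 66 (55.5%) had a ratio above 1, beside 49.3% of all named genes at such signals, and the median was 1.01. None was above 1.5 and CLN8 alone was below 0.67, where 1.87% and 1.71% of named genes at such signals lay. CLN8, a membrane protein that helps to export lysosomal enzymes from the ER, went from 313 to 195, a ratio of 0.624, as read by a single probe set. The nearest to 1.5 were FIG4, a lipid phosphatase, at 1.41, and LITAF, a protein of the late endosomal membrane, at 1.36 (2583 and 3519). After CLN8, the lowest ratios were those of TECPR1 at 0.705 (140 and 98.6) and ABCB9 at 0.763 (161 and 123). The median over the 5 probe sets of TECPR1 was 0.574.

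**Figure D5:**
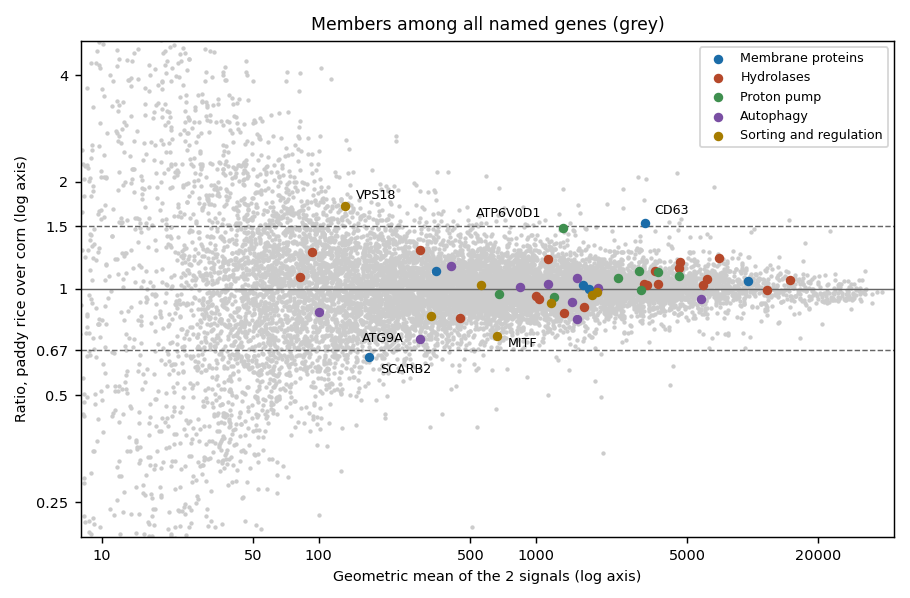
Ratio of signals, paddy rice over corn, against the geometric mean of both signals for all named genes (grey; 626 lie outside the axes) and for the 51 lysosome and autophagy genes (coloured by group), with dashed lines at 0.67 and 1.5, both axes logarithmic. The scatter of all genes widens towards low signals, where SCARB2 and VPS18 lie, while CD63, ATP6V0D1 and MITF lie at the edge of the scatter at their signals.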

How the data were processed

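The deposited values are signal intensities per probe set of the GeneChip Chicken Genome Array, computed by the authors with the MAS5 algorithm and scaled to a common trimmed mean (500.1 on both arrays, trimming 2% at each end). The table holds 38535 probe sets without detection calls. Of these, 37693 were chicken, and 27166 of them had 1 gene in the annotation of the platform, whose symbols may be outdated. Symbols were updated through RefSeq (assembly GRCg7b) for 26851. A gene took its probe set of highest mean log2 signal. The 95th percentile of 689 probe sets not marked as chicken was taken as background. With 1 array per diet no test was made, and the number of arrays limits precision.

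Members, lists, classes and alternatives were chosen with earlier results of these data known. Values in full are given for genes past 1.5 or 0.67, for the 2 brightest and for the highest and lowest ratios of each group, and for others that the text singles out, chosen after their values were seen. CLN8 was named as the only further gene past a threshold at or above the median signal, and the other pathway genes named were chosen after their values were seen. The search of promoters for motifs was not run, since no sequences were used here. The threshold rule was checked on simulated arrays with a chosen noise. Folds of 2 or 0.5 and further from 1 were put into probe sets above the 75th percentile of signal. That check does not bear on folds nearer to 1, such as that of CD63, or on the dimmer VPS18 and SCARB2. The alternatives were median centring, quantile normalization, filters at the median and the 75th percentile of signal, the 25th percentile of signals added, the median over probe sets, no shared probe sets, and thresholds of 2 and 0.5. The software was pandas 2.3.3, numpy 2.4.6 and scipy 1.17.1 on Python 3.11.15, with matplotlib 3.10.9 for plots.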

Additional observations from a re-analysis of the deposited data

How the results depend on the processing

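Of 76 recomputed counts and medians, 59 stayed within their margin (1.5 times for a count, the SD between probe sets over the root of the number of genes for a median). The cause was not tested where a median moved. The count of genes above 1.5 was 2, and became 1 (CD63) among bright genes (75th percentile or higher) and without shared probe sets. It was 0 at a threshold of 2, and 3 with the median over probe sets, the latter within its margin. The count below 0.67 was 1 (SCARB2), and 0 among bright genes, with the 25th percentile of signals added, and at 0.5. The autophagy median of -0.045 was 0.010 at or above the median signal, 0.035 with the median over probe sets and -0.11 without shared probe sets. The sorting and regulation median of -0.058 was -0.14 with the median over probe sets. With a filter at the 90th percentile, added after the values were seen, the median of 23 members was 0.073, beside 0.0072 for all such genes. The hydrolase median without GAA and NAGLU, also not planned, was 0.040, beside 0.061 with them. Of the 132 further genes, 3 were above 1.5 and 7 below 0.67. Above 1.5 there were 0 with either signal filter, and 5 with the median over probe sets or without shared ones. Below 0.67 there were 1 at or above the median signal and 0 among bright genes. With the median over probe sets 8 were below 0.67, and without shared ones 9 of the 107 left. Of 242 ratios of single genes, 6 moved by more than the SD between probe sets. With the median over probe sets, ULK1 was at 1.23, ATG7 at 1.58, ATG3 at 0.813, GLB1 at 1.01 and M6PR at 0.808. Without shared probe sets BECN1 was at 1.20. No paired analysis was possible because each diet has 1 array.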
